A study of Caenorhabditis elegans with 40 samples.

Results

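Chromosome X of C. elegans was tiled from its first base in 355 windows of 50 kb (WBcel235), of the 2008 such windows of the 6 nuclear chromosomes, and each protein-coding gene was assigned to the window that held its 5′ end. A window held a median of 7 protein-coding genes, up to 19, and 1 window held none. The ratio of a window is the median, over its tested genes, of the log2 fold change in mRNA against the control of the same batch, so a ratio of 1 means that the typical gene there was doubled. Windows with at least 3 tested genes entered the tests, which kept 336 windows after cleavage of DPY-26, 331 after degradation of SDC-3 and 334 after combined loss. The same 331 windows were tested in all 3 comparisons.

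In C. elegans hermaphrodites, which carry a pair of X chromosomes, a dosage compensation complex binds both X chromosomes along their length and lowers their expression towards the output of the single X of males. The core of this complex is a condensin, condensin IDC, whose kleisin subunit DPY-26 also belongs to condensin I. Condensin I also forms long-range loops on interphase chromosomes, so cleavage of DPY-26 cannot tell loss of condensin I and of condensin IDC apart. SDC-3 is a zinc finger protein that, with SDC-2, brings the dosage compensation complex to X in hermaphrodites. The comparisons addressed how expression along X depends on the condensins that hold DPY-26, on SDC-3 and on both.

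All animals carried ubsSi20, which drives TEV protease from the heat shock promoter hsp-16.2, and were shocked as larvae for 30 min at 34 °C, 3 h after plating, then grown for 19 h at 22 °C to the L3 stage. DPY-26 was cleaved in strain PMW382, which carries dpy-26(ubs4[FLAG-TEVcs]), and was set against strain PMW366, which carries the protease alone (4 samples each, batch 1). SDC-3 was degraded in strain PMW822, which carries sdc-3(ubs20[N-term AID]) and xeSi376, a TIR1::mRuby transgene under the eft-3 promoter. Its 3 samples on 1 mM auxin were set against 3 samples of the same strain on ethanol (batch 4). Combined loss was studied in strain PMW821, which carries both alleles and both transgenes, set against strain PMW823 with the protease and TIR1 alone, all on 1 mM auxin (3 samples each, batch 3). In the SDC-3 comparison, auxin itself and loss of SDC-3 cannot be told apart. The 5 further comparisons used cleavable KLE-2 (kle-2(ubs14[FLAG-TEVcs]), PMW775) and SCC-1 (scc-1(ubs19[FLAG-TEVcs]), PMW784) with the TEV control of batch 1, 4 samples a group. They also used COH-1 (coh-1(ubs26[FLAG-TEVcs]), PMW828) and COH-1 with SCC-1 (PMW844) with PMW366 in batch 2, and PMW823 against PMW366, both on auxin, in batch 3, 3 samples a group. Whole animals were sequenced, so fewer cells of a type and less RNA per cell cannot be told apart, and strains differ from their controls by construction as well as by protein loss.

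The 40 libraries held 20460404 to 88427247 assigned reads, and no pair of replicates was identical. Markers of body wall muscle, pharynx, intestine, epidermis, neurons and germline were present in every group of the 3 main comparisons, and the 4 adult markers summed to under 1 TPM. Their sum was nevertheless higher, without overlap, after DPY-26 cleavage (0.128 to 0.351 TPM against 0.0337 to 0.0402 TPM in TEV controls) and after combined loss (0.384 to 0.608 TPM against 0.0558 to 0.182 TPM in TIR1 auxin controls). The adult collagen gene col-19, on X, was called higher in both (log2 fold changes 3.81 and 2.63). After DPY-26 cleavage the autosomal markers unc-54 (−0.46), ges-1 (−0.45), unc-104 (−0.41), hrde-1 (−0.26) and wago-1 (−0.24) were called lower, when 11.9% of all tested genes were. They were 1 of 2 markers of body wall muscle, 1 of 2 of intestine, 1 of 3 of neurons and 2 of 21 of germline. The other members of these lists were not called, with log2 fold changes of up to 0.32 in neurons and 0.34 in germline. Calls of lower genes depended on the scaling between samples. With scaling factors (TMM) from autosomal genes alone, 766 genes were called lower after DPY-26 cleavage, against 1712 with factors from all genes. The part of these markers in the X results was not tested. The summed level of 11 genes of the moulting cycle did not overlap between the SDC-3 degron samples with auxin (471 to 1419 TPM) and without auxin (2042 to 2960 TPM). It overlapped after DPY-26 cleavage (636 to 1399 TPM against 839 to 1287 TPM in TEV controls) and after combined loss (497 to 1096 TPM against 591 to 1450 TPM in TIR1 auxin controls). The epidermal markers dpy-7 and nhr-25 likewise summed to 68.2 to 188 TPM with auxin, against 261 to 378 TPM without auxin. Their part in the SDC-3 results was not tested. Since cleavage and degradation act on proteins, mRNA does not check the labels. The dpy-26 mRNA was lower after DPY-26 cleavage (log2 fold change −0.69 ± 0.09, SE, edgeR adjusted p = 0.00114) and after combined loss (−0.72 ± 0.11, adjusted p = 0.00751), and sdc-3 mRNA changed by 0.15 ± 0.12 with auxin (adjusted p = 0.507).

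After DPY-26 cleavage, nearly the whole of X was upregulated. The median ratio of the 336 X windows was 0.61, a 1.53-fold increase, against −0.07 for 1513 autosomal windows. Of the X windows, 334 had a ratio above 0 and 329 were called higher by limma at an adjusted p under 0.05, when 22.2% of all windows were called higher. No X window was called lower, nor at an unadjusted p under 0.05 (0 windows), when 20.7% of all windows were. In 322 X windows every cleaved sample lay above every TEV control, when 21.1% of all windows had this order (69 of 1513 on the autosomes). The X median of each cleaved sample, on the scale of log2 CPM (reads of a gene relative to all reads of its sample) relative to the mean of the controls, was 0.59, 0.57, 0.55 and 0.62, against 0.01, −0.0033, −0.0046 and 0.0027 in the TEV controls. The mean was 0.584 ± 0.027 in cleaved samples and 0.0021 ± 0.0082 in TEV controls (SD, n = 4 each), so the groups lay far apart. With TMM factors taken from autosomal genes alone, 87.0% of all called windows were higher, against 51.8% with factors from all genes.

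Combined loss gave almost the same level of X expression. The median ratio was 0.58 over 334 X windows, a 1.49-fold increase and 95.0% of the DPY-26 median, against −0.08 on the autosomes. All 334 windows had a ratio above 0, and 320 were called higher (20.1% of all windows), while 0 X windows were called lower, also at an unadjusted p under 0.05 (4.13% of all windows). The samples with combined loss had X medians of 0.60, 0.56 and 0.55, against 0.05, −0.03 and −0.02 in the TIR1 auxin controls, so that the groups lay far apart. With TMM factors from autosomal genes alone the autosomal median was −0.011, and 27 autosomal windows were called lower, against 76.

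Auxin in the SDC-3 degron strain gave a much smaller shift. The amount of SDC-3 protein left with auxin, or lost without it, was not measured in these data. The median ratio was 0.14 over 331 X windows, a 1.11-fold increase and 23.7% of the DPY-26 median, against −0.03 on the autosomes. Of the X windows, 265 (80.1%) had a ratio above 0, compared with 44.8% of the autosomal windows. The X medians with auxin were 0.12, 0.15 and 0.16, against −0.01, −0.01 and 0.04 without auxin, which did not overlap. By window, however, limma called 1 X window higher and 0 lower, when 0.329% of all windows were called in either direction. At an unadjusted p under 0.05, 82 X windows were higher and 5 lower. Leaving out replicate 3 of the samples without auxin gave 59 X windows higher and 2 lower, with 60 autosomal windows higher and 60 lower, and leaving out any of the other 5 samples gave 0 on X. Chromosome V also had a positive median in this comparison (0.09), while the other autosomes lay between −0.09 and −0.03.

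**Figure D1:**
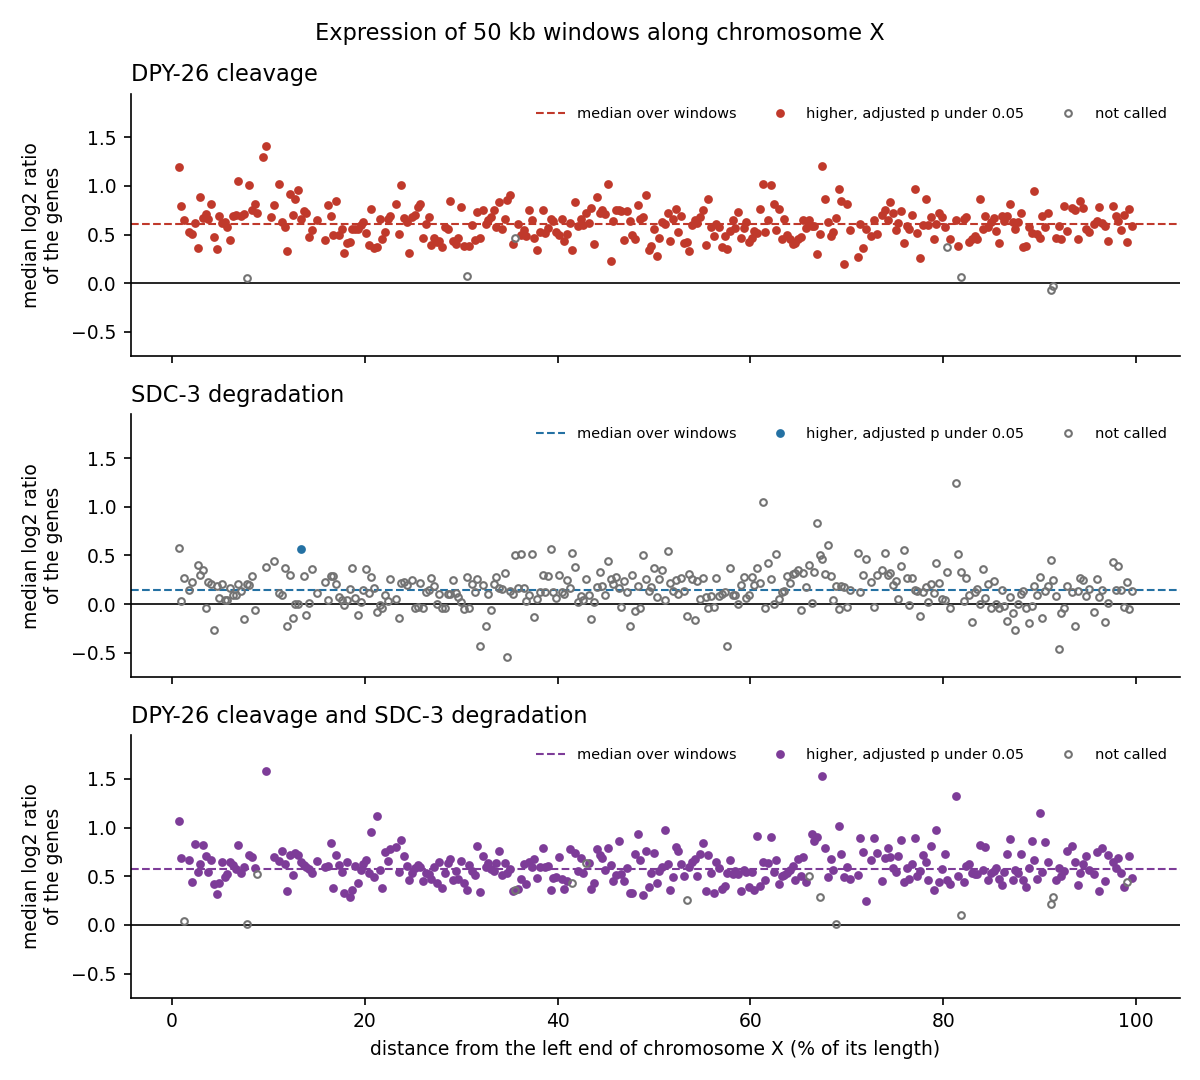
Ratio of each 50 kb window (median log2 fold change of its genes) against its distance from the left end of chromosome X, after DPY-26 cleavage, SDC-3 degradation and combined loss, each against its own control. Filled points are windows called higher at an adjusted p under 0.05 (329, 1 and 320), open points were not called, and dashed lines mark the medians of 0.61, 0.14 and 0.58.

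**Figure D2:**
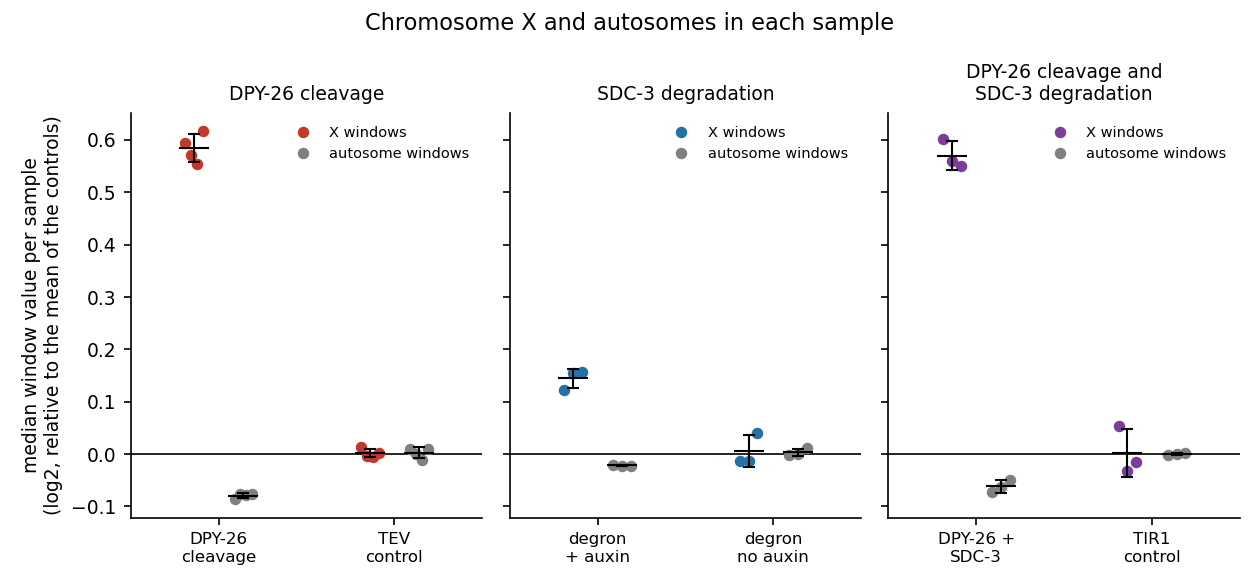
Median over the X windows (coloured) and over the autosomal windows (grey) in each sample, in log2 relative to the mean of the controls, with the mean and SD of each group in black. The treated samples stand left of their controls, and X in the SDC-3 degron samples with auxin lies between 0.12 and 0.16, against 0.55 to 0.62 after DPY-26 cleavage.

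The change after DPY-26 cleavage was even along the chromosome. Of the X ratios, 91.7% lay between 0.3 and 0.9, 10 windows lay below this band and 18 above it. The SD between windows was 0.19, with a median standard error per window of 0.07. When windows were gathered into 18 blocks of 1 Mb, the lowest block median was 0.54 (the 4th block, which starts at 3 Mb) and the highest 0.73 (the 2nd block, from 1 Mb). In all 18 blocks each cleaved sample lay above each TEV control, when 18.4% of all 103 blocks of the genome had this order. After combined loss the block medians ran from 0.53 to 0.67, again with the groups apart in 18 of 18 blocks (21.4% of all blocks). Ratios of adjacent windows were barely related. Across 321 pairs of neighbours on X, Pearson's r was 0.15 after DPY-26 cleavage, and it was −0.08 across 319 pairs after combined loss, values that describe windows from the same libraries.

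The smaller increase after loss of SDC-3 was less even in proportion. The block medians ran from −0.0014 in the 16th block to 0.30 in the 12th block, and each sample with auxin lay above each sample without auxin in 13 of the 18 blocks (14.6% of all blocks). In the 12th block, from 11 Mb, the samples with auxin had block medians of 0.30 to 0.33, against −0.12 to 0.06 without auxin. In the 16th block, from 15 Mb, they were 0.04 to 0.07, against −0.05 to 0.10, which overlapped. These blocks were singled out after their values were seen.

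**Figure D3:**
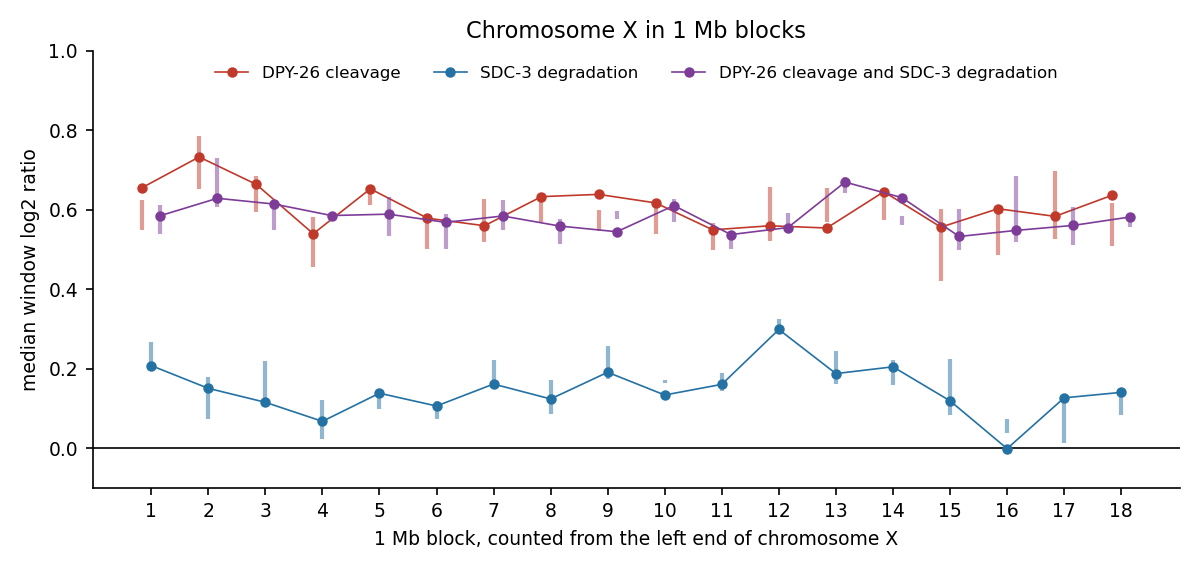
Median window ratio in 18 blocks of 1 Mb along X (points), with the range over the treated samples of the block median of each sample (bars). Points come from the fitted fold changes and bars from log2 CPM, so a point can lie outside its bar, and SDC-3 degradation stays below the other 2 comparisons in all blocks.

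Genes within a window differed from each other far more than windows did. The median interquartile range of log2 fold changes inside an X window was 0.33 after DPY-26 cleavage, 0.40 after SDC-3 degradation and 0.33 after combined loss. Differences between windows made up 4.79%, 4.35% and 5.22% of the variance among X genes in the same order, against 13.3%, 10.9% and 10.2% on the autosomes. After DPY-26 cleavage every tested gene lay above 0 in 256 of 336 X windows, and after combined loss in 268 of 334, while this held for 43 of 331 windows after SDC-3 degradation. On the autosomes it held for 2.58% of windows after DPY-26 cleavage, 1.99% after combined loss and 3.83% after SDC-3 degradation. After DPY-26 cleavage and combined loss the increase was thus spread over the members of most X windows rather than carried by single genes.

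At the level of genes, edgeR's quasi-likelihood test called 1505 of 2224 tested X genes higher and 11 lower after DPY-26 cleavage (adjusted p under 0.05), when 15.5% of all tested genes were higher and 11.9% lower. After combined loss, 1079 of 2176 X genes were higher and 4 lower, when 11.2% and 3.46% of all genes were. Leaving out 1 sample left 523 genes (without combined loss replicate 2), 548 (without TIR1 auxin control replicate 2), 600 (without combined loss replicate 3) or 636 (without combined loss replicate 1). After SDC-3 degradation, 25 of 2110 X genes were higher and 1 was lower, when 0.814% and 0.455% of all genes were. That count was 185 without replicate 3 of the samples without auxin, 29 without replicate 2 of the samples with auxin, and 0 when any of the other 4 samples was left out (replicates 1 and 3 with auxin, 1 and 2 without), so every call of an X gene as higher named for this comparison was lost there. With DESeq2 it was 166. The median fold change over all tested X genes was 0.61, 0.14 and 0.58 on the log2 scale after DPY-26 cleavage, SDC-3 degradation and combined loss.

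The difference between the comparisons was tested as a contrast of contrasts in 1 limma fit over the 6 groups, which share no samples between comparisons. Only the SDC-3 comparison set auxin against no auxin. In contrasts with it, auxin, the difference in moulting genes and loss of protein cannot be told apart. The increase was larger after DPY-26 cleavage than after SDC-3 degradation in 215 of 331 X windows and smaller in 1 (19.7% of all windows differed, and 9.58% of the autosomal windows did). The median difference was 0.43, with quartiles of 0.29 and 0.59. Combined loss likewise exceeded SDC-3 degradation in 191 X windows, with a median of 0.43 (15.2% of all windows differed), a count that was 126 without combined loss replicate 1. Between combined loss and DPY-26 cleavage, 0 X windows differed (0% of all windows called). The median difference was −0.0008 and the quartiles were −0.09 and 0.09, with a median standard error of 0.12. At an unadjusted p under 0.05, 12 windows were higher and 13 lower after combined loss. The smallest adjusted p was 0.249, and 24 windows had a difference over 0.3 in either direction, which was not resolved at this number of samples. With the TEV auxin control of the same batch in place of the TIR1 auxin control, 10 windows differed.

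How far windows lay above or below the others was related between the comparisons that cleaved DPY-26. Across 334 X windows the ratios after DPY-26 cleavage and after combined loss had Pearson's r = 0.53 and Spearman's rho = 0.48, and across 1495 autosomal windows r = 0.62 and rho = 0.52. Against SDC-3 degradation, the DPY-26 ratios had r = 0.06 and rho = 0.05 across 331 X windows, and r = 0.25 and rho = 0.25 across 1486 autosomal windows. Combined loss and SDC-3 degradation had r = 0.19 and rho = 0.16 on X. The points share the genes of a window, their length and their expression level, so these values are descriptions.

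**Figure D4:**
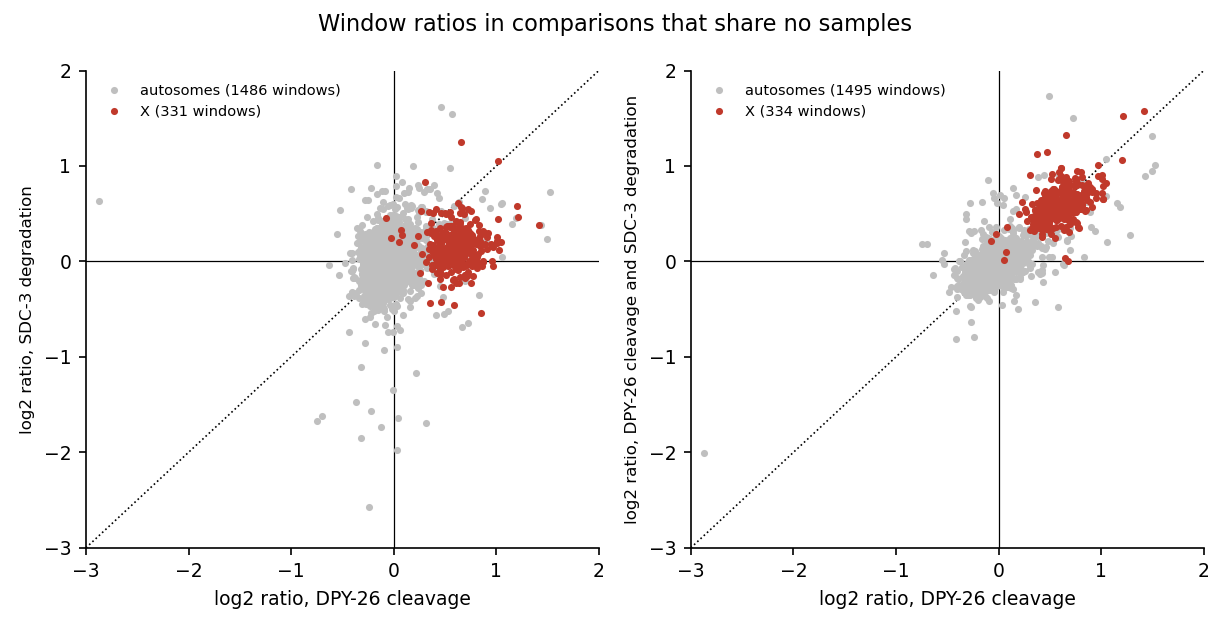
Ratio of each window after SDC-3 degradation (left) and after combined loss (right) against its ratio after DPY-26 cleavage, for X (red) and autosomes (grey), with the line of equality dotted. The X windows form a cloud set off to the right on the left plot (medians 0.61 and 0.14) and centred near the line of equality on the right plot (medians 0.61 and 0.58).

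Features of the windows that the tiling did not use were weakly related to the ratios. The median expression level of the genes, taken as log2(TPM + 1) from the TEV controls of batch 2, had r = −0.22 with the ratio after DPY-26 cleavage (336 X windows), −0.21 after SDC-3 degradation (331 windows) and −0.12 after combined loss (334 windows). When X windows were split into 3 groups by level, the median DPY-26 ratio was 0.63 in the lowest group and 0.60 in the highest, and the median SDC-3 ratio was 0.20 in the lowest and 0.13 in the highest. By gene span the SDC-3 medians were 0.19 for the shortest and 0.12 for the longest. With the number of protein-coding genes in a window, r was 0.06, 0.10 and 0.08, and with the median gene span it was −0.02, −0.14 and −0.10. On the autosomes the ratio after DPY-26 cleavage had r = −0.38 with level.

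The window with the highest ratio after DPY-26 cleavage was chrX:1700001-1750000, with 3 tested genes of 12. Its window values, on the log2 CPM scale, were 1.11, 1.20, 1.22 and 1.17 in the cleaved samples, against 0.13, −0.07, 0.16 and −0.21 in the TEV controls. The groups were 1.18 ± 0.08 apart (SE, limma adjusted p = 1.3e-05). Values were also high after combined loss (1.31, 1.42 and 1.00, against 0.01, −0.14 and 0.13 in TIR1 auxin controls, adjusted p = 0.00041). With auxin in the SDC-3 degron strain they were uneven (0.74, 0.08 and 0.72, against −0.18, 0.10 and 0.08 without auxin, adjusted p = 0.199). Its genes were C36C9.5 and the F-box genes fbxa-52 and fbxa-53, of the large family of F-box adaptors of ubiquitin ligases. C36C9.5 had 1.38, 1.47, 1.68 and 1.48 CPM in cleaved samples, against 0.492, 0.589, 0.637 and 0.528 CPM in TEV controls, a 2.66-fold difference (edgeR adjusted p = 0.000564). The estimates of fbxa genes could be split between near-identical copies by the quantification.

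The next window, chrX:11950001-12000000, gathered more genes, with 10 of 12 tested. Its values were 1.24, 1.05, 1.5 and 1.37 after DPY-26 cleavage, against −0.16, −0.21, 0.27 and 0.10 in TEV controls (difference 1.29 ± 0.13, adjusted p = 5.8e-05). After combined loss they were 1.00, 0.94 and 1.15, against 0.05, −0.08 and 0.03 in TIR1 auxin controls. With auxin in the SDC-3 degron strain they were 0.60, 0.65 and 0.363, against 0.360, 0.23 and −0.59 without auxin, which barely separated the groups and did not pass (0.54 ± 0.24, adjusted p = 0.251). The genes that moved most, T08D10.3, C49F5.6 and C49F5.13, carry sequence names only, and the window also holds sams-1, which encodes an S-adenosylmethionine synthetase. C49F5.6 had 4.64, 3.74, 4.40 and 4.67 CPM after cleavage, against 1.13, 0.925, 1.26 and 1.21 CPM in TEV controls, and 3.01, 2.92 and 2.97 CPM after combined loss, against 0.617, 0.672 and 0.949 CPM in TIR1 auxin controls. After SDC-3 degradation C49F5.6 did not pass the test (log2 fold change 0.41 ± 0.29, edgeR adjusted p = 0.447).

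The other 3 of the 5 highest windows all lay in the first 2 Mb. At chrX:100001-150000, which held fbxa-222 and Y73B3A.4, the values were 1.19, 1.22, 1.19 and 1.18 after DPY-26 cleavage, against −0.09, −0.10, 0.06 and 0.13 in TEV controls. This window was also among the higher ones with auxin in the SDC-3 degron strain, with 1.01, 0.74 and 0.44 against −0.10, 0.10 and 0.0066 without auxin, which did not overlap but did not pass (limma adjusted p = 0.0925). Y73B3A.4 showed the same order of the comparisons. It had 6.54, 6.67, 6.53 and 6.49 CPM after cleavage, against 2.67, 2.65, 2.97 and 3.10 CPM in TEV controls, and 4.68, 4.92 and 3.79 CPM with auxin, against 3.37, 2.97 and 2.62 CPM without auxin. The windows chrX:1200001-1250000 and chrX:1950001-2000000 had ratios of 1.05 and 1.02 after DPY-26 cleavage, 0.82 and 0.66 after combined loss, and 0.21 and 0.12 after SDC-3 degradation. The difference between DPY-26 cleavage and SDC-3 degradation passed the limma test in all 5 of these windows (adjusted p 4.2e-05 to 0.0466). They were chosen for a high DPY-26 ratio, which enters that difference, so the choice favoured passing and these calls add no support.

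Only 7 of 336 X windows were not called higher after DPY-26 cleavage, and 14 of 334 after combined loss, with 5 windows in both lists. The lowest ratios after cleavage lay next to each other, at chrX:16150001-16200000 (−0.07) and chrX:16200001-16250000 (−0.03). In the first the values were 0.13, −0.27, −0.16 and 0.56, against −0.19, −0.31, 0.22 and 0.28 in TEV controls, which overlapped fully. In the second they were −0.38, 0.03, 0.0092 and 0.02, against −0.05, −0.13, 0.06 and 0.12 in TEV controls, and with no filter on low counts its ratio became 0.30. The first holds F09C8.1, nlp-67, which encodes a neuropeptide-like protein, slc-25A21, which encodes a mitochondrial carrier, and R11.3. The gene nlp-67 was called higher (log2 fold change 1.15, adjusted p = 0.0174), unlike the other 3. F09C8.1 varied widely among replicates, with 1.42, 1.71, 2.99 and 13.3 CPM in cleaved samples, against 1.73, 2.77, 16.5 and 5.51 CPM in TEV controls. F23A7.4, in the second, was among the few X genes called lower after DPY-26 cleavage (−0.55 ± 0.13, adjusted p = 0.0149).

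At chrX:14500001-14550000, with nspc-16 to nspc-20 of a nematode-specific peptide family among its 11 tested genes, the ratio was 0.07 after DPY-26 cleavage and 0.10 after combined loss. Its values after cleavage were −0.18, −0.23, −0.0046 and 0.16, against −0.36, −0.01, 0.25 and 0.13 in TEV controls. At chrX:6300001-6350000, which holds the cuticle collagens col-167 to col-170, the ratio of 0.46 after cleavage was not low, but its standard error of 0.29 left it uncalled (adjusted p = 0.307), and it was 0.36 after combined loss (adjusted p = 0.108). The windows chrX:1350001-1400000, with fbxa-190, and chrX:5400001-5450000, with pks-1, which encodes a polyketide synthase, completed the 5 lowest, with ratios of 0.05 and 0.08. At chrX:1350001-1400000 the values after combined loss were 1.59, 0.45 and 0.39, against 0.37, 0.61 and −0.98 in TIR1 auxin controls, so its difference from DPY-26 cleavage on the log2 CPM scale was 0.68 ± 0.51 (adjusted p = 1.0), while its ratio after combined loss, the median fold change of its genes, was 0.01.

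The windows in which DPY-26 cleavage and SDC-3 degradation differed most went in opposite directions. At chrX:16300001-16350000, with twk-22, which encodes a potassium channel, taf-3, which encodes a TFIID-associated factor, and T01B4.3, the values were 0.59, 0.53, 0.56 and 0.76 after cleavage, against 0.02, −0.05, −0.02 and 0.05 in TEV controls. With auxin in the SDC-3 degron strain they were −0.49, −0.41 and −0.44, against −0.16, −0.07 and 0.23 without auxin. The difference was 1.05 ± 0.11 (adjusted p = 3.3e-05), while the SDC-3 comparison alone did not pass (adjusted p = 0.124). The ratio after combined loss, 0.59, became −0.01 with the TEV auxin control in place of the TIR1 auxin control.

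At chrX:6150001-6200000, which holds daf-9, the cytochrome P450 that makes the steroid hormone dafachronic acid, the values after DPY-26 cleavage were 1.03, 0.21, 1.18 and 0.97, against −0.38, −0.25, 0.25 and 0.37 in TEV controls. With auxin in the SDC-3 degron strain they were −0.52, −0.15 and −0.87, against 0.08, 0.03 and −0.11 without auxin (difference of the comparisons 1.13 ± 0.28, adjusted p = 0.00879). The gene daf-9 rose to 20.4, 24.1, 17.5 and 22.1 CPM after cleavage, against 9.67, 9.35, 11.4 and 9.84 CPM in TEV controls, and to 14.9, 14.5 and 15.7 CPM after combined loss, against 11.1, 10.8 and 8.79 CPM in TIR1 auxin controls (adjusted p = 0.000556 and 0.0249). It had 9.42, 10.8 and 8.15 CPM with auxin, against 9.63, 10.1 and 10.2 CPM without auxin (adjusted p = 0.789). The window's ratio after combined loss, 0.53, became −0.39 with the TEV auxin control.

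Combined loss and SDC-3 degradation differed most at chrX:9050001-9100000 (1.16 ± 0.15, adjusted p = 0.00022) and chrX:1300001-1350000 (1.08 ± 0.19, adjusted p = 0.00103). In the second, pdk-1, which encodes the kinase PDK1 of insulin signalling, had 29.7, 21.7 and 20.2 CPM after combined loss, against 16.7, 13.1 and 12.2 CPM in TIR1 auxin controls, and 13.9, 15.8 and 13.2 CPM with auxin, against 13.0, 12.7 and 16.6 CPM without auxin. At chrX:10750001-10800000, combined loss gave the larger value (1.05, 1.22 and 1.04, against −0.07, −0.0039 and 0.07 in TIR1 auxin controls) than DPY-26 cleavage (0.46, 0.43, 0.36 and 0.64, against −0.06, −0.12, 0.32 and −0.14 in TEV controls), but the difference of 0.63 ± 0.13 did not pass (adjusted p = 0.249). That window holds sma-9, the Schnurri homologue of TGF-β signalling, with 360, 283 and 280 CPM after combined loss, against 201, 133 and 155 CPM in TIR1 auxin controls (edgeR adjusted p = 0.0135).

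A few windows stood out after loss of SDC-3, and they were singled out after their values were seen. The 1 window called higher was chrX:2350001-2400000, with lgc-40, which encodes a ligand-gated ion channel, F47G3.1 and 3 further tested genes. It had 0.63, 0.82 and 0.65 with auxin, against 0.05, −0.06 and 0.0039 without auxin (0.70 ± 0.09, adjusted p = 0.0341). DPY-26 cleavage gave 0.66, 0.89, 0.79 and 0.61 there, against 0.03, 0.11, −0.08 and −0.06 in TEV controls, so this window moved alike in the 2 comparisons (difference 0.04 ± 0.13, adjusted p = 0.862). It was not called when any 1 of the samples other than replicate 3 without auxin was left out, since the X count was then 0.

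The highest SDC-3 ratios lay at chrX:14400001-14450000 (1.25) and chrX:10850001-10900000 (1.05). The first holds fipr-3 and F23D12.11, which overlap on opposite strands, and jmjd-3.2, which encodes a JMJD3-type demethylase, and its values were 1.08, 0.74 and 1.14 with auxin, against 0.16, 0.36 and −0.52 without auxin (adjusted p = 0.11). The second holds pgp-5, pgp-6 and pgp-8, which encode P-glycoprotein transporters of the ABC family, and its values were 0.99, 1.08 and 1.32, against 0.37, 0.34 and −0.70 (adjusted p = 0.116). The gene pgp-8 had 19.4, 19.9 and 32.5 CPM with auxin, against 1.68, 1.75 and 0.949 CPM without auxin, which was 16.4-fold higher (edgeR adjusted p = 0.0141). It was also higher in TIR1 auxin controls than in TEV auxin controls (log2 fold change 4.16 ± 0.25, adjusted p = 0.000213) and after SCC-1 cleavage (3.52 ± 0.21, adjusted p = 0.000155), in animals with intact SDC-3. Reads could be split between the similar pgp genes.

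In 1 X window the increase was smaller after DPY-26 cleavage than after SDC-3 degradation. It was chrX:13450001-13500000, with flr-1, which encodes a channel of the DEG/ENaC family, col-184, which encodes a collagen, and tre-4, which encodes a trehalase. Its values over all tested genes were 0.45, 0.36, 0.35 and 0.31 after cleavage, against 0.18, 0.0037, 0.0099 and −0.20 in TEV controls. With auxin they were 0.52, 0.60 and 0.63, against 0.22, −0.0043 and −0.22 without auxin. Over the 3 genes tested in every comparison the difference was −0.62 ± 0.15 (adjusted p = 0.00635). No X window was called in this direction without a low-count filter, with at least 5 CPM or with means over genes.

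There were 15 X genes called higher in all 3 comparisons, and they lay in windows spread over the chromosome. Of all tested genes, 15.5% were called higher after DPY-26 cleavage, 0.814% after SDC-3 degradation and 11.2% after combined loss. The largest changes among them after DPY-26 cleavage were those of C23H4.8 (log2 fold change 2.21), cyp-13B1 (2.17), which encodes a cytochrome P450, C44C1.6 (2.12), ttr-30 (2.12), which encodes a transthyretin-related protein, and B0416.7 (2.02). The gene ttr-30 had 16.1, 24.7, 15.9 and 14.1 CPM after cleavage, against 3.53, 3.28, 5.85 and 3.56 CPM in TEV controls. It had 18.2, 17.9 and 19.6 CPM with auxin, against 6.70, 7.51 and 7.0 CPM without auxin, and 47.1, 51.4 and 48.3 CPM after combined loss, against 11.6, 13.9 and 16.3 CPM in TIR1 auxin controls. No group of treated samples overlapped its controls (edgeR adjusted p = 0.000688, 0.0141 and 0.000782). The gene mrp-2, which encodes an ABC transporter, had 59.0, 60.3, 58.0 and 57.7 CPM after cleavage, against 34.1, 30.0, 34.2 and 36.2 CPM in TEV controls, and 72.4, 83.5 and 78.6 CPM with auxin, against 51.7, 46.6 and 48.1 CPM without auxin (adjusted p = 0.000352 and 0.0474). The 5 smallest changes were those of dpf-2, mrp-2, lgc-11, pgp-8 and F47G3.1, which rose by 0.56 to 1.06 after DPY-26 cleavage. In both DPY-26 cleavage and combined loss, 895 X genes were higher and 1, F54B11.11, was lower. Genes shared between comparisons were counted on X only, so these counts do not set X apart from the autosomes.

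The genes that count X chromosomes and set the sexual fate moved in different ways. Of the 6 genes of this list, xol-1, the switch gene, was too low to test. After DPY-26 cleavage ceh-39, fox-1 and sdc-1 were higher and sdc-2 was lower. After combined loss ceh-39, fox-1 and sdc-2 were higher, and after SDC-3 degradation sex-1 was lower. The signal element fox-1, which encodes an RNA-binding protein, had 33.5, 31.4, 31.1 and 30.2 CPM after cleavage, against 20.5, 18.6, 18.5 and 20.1 CPM in TEV controls (adjusted p = 0.000404). With auxin it changed by −0.08 on the log2 scale (adjusted p = 0.792). The hermaphrodite-specific gene sdc-2, which starts the assembly of the complex on X, had 17.2, 14.5, 16.6 and 22.3 CPM after cleavage, against 24.6, 24.4, 21.9 and 23.4 CPM in TEV controls (log2 fold change −0.42 ± 0.12, adjusted p = 0.036). It had 40.8, 37.8 and 41.9 CPM after combined loss, against 30.8, 29.0 and 31.3 CPM in TIR1 auxin controls (0.40 ± 0.09, adjusted p = 0.0216).

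The nuclear receptor gene sex-1, another X signal element, had 3.84, 3.79 and 3.60 CPM with auxin, against 7.98, 7.34 and 7.07 CPM without auxin, so that the groups were far apart. It was the 1 X gene called lower in the SDC-3 comparison (log2 fold change −0.99 ± 0.15, edgeR adjusted p = 0.0418), a call that was lost when any of 4 of the 6 samples was left out (adjusted p 0.108 to 0.235). It had 6.04, 4.47, 5.81 and 6.62 CPM after DPY-26 cleavage, against 6.25, 5.78, 6.32 and 6.32 CPM in TEV controls, and 5.54, 4.87 and 6.41 CPM after combined loss, against 5.96, 4.39 and 4.66 CPM in TIR1 auxin controls, where it passed neither test.

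Lists of X genes with known roles are read against the whole chromosome, of which 67.7% of tested genes were called higher after DPY-26 cleavage, 49.6% after combined loss and 1.18% after SDC-3 degradation, with medians of 0.61, 0.58 and 0.14. Of 12 genes of neurons, 11 were higher and 0 lower after DPY-26 cleavage, with a median log2 fold change of 0.49, below that of X. Among them were unc-2, the α subunit of a voltage-gated calcium channel, and the innexin gene unc-7. The gene not called was mec-7, the β-tubulin gene of touch receptor neurons (log2 fold change 0.06 ± 0.06, adjusted p = 0.525). The innexin gene unc-7 had 56.3, 55.8, 54.9 and 58.2 CPM after cleavage, against 40.6, 40.7, 39.7 and 43.1 CPM in TEV controls. After combined loss 5 of the 12 genes were higher and 0 lower (8 and 0 at an unadjusted p under 0.05, 6 and 0 with DESeq2), with a median of 0.45. After SDC-3 degradation 0 of 12 were called by edgeR or DESeq2, also 0 at an unadjusted p under 0.05, with a median of 0.16 and a range of 0.10 to 0.40.

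All 8 genes of developmental timing and vulval fate were higher after DPY-26 cleavage, with a median of 0.49, also below the X median of 0.61. The heterochronic gene lin-14 had 201, 226, 186 and 213 CPM after cleavage, against 123, 106, 114 and 113 CPM in TEV controls (adjusted p = 0.000385). The nuclear receptor gene nhr-25, needed in the epidermis, had 69.8, 71.0, 63.6 and 70.2 CPM after cleavage, against 41.3, 38.6, 33.8 and 41.1 CPM in TEV controls, and 36.1, 36.1 and 35.8 CPM after combined loss, against 23.9, 22.4 and 22.2 CPM in TIR1 auxin controls. After combined loss 3 of the 8 were higher and 0 lower (7 and 0 at an unadjusted p, 4 and 0 with DESeq2). After SDC-3 degradation 0 were called (1 higher and 0 lower both at an unadjusted p and with DESeq2), with a median of 0.06. There lin-14 had 155, 136 and 159 CPM with auxin, against 116, 109 and 86.6 CPM without auxin, which did not overlap (log2 fold change 0.53, adjusted p = 0.102).

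Of 7 genes listed under cuticle and basement membrane, 3 were higher after DPY-26 cleavage (dpy-23, let-2 and lon-2, median of the 7 genes 0.31, against 0.61 and 67.7% called for X) and 1, dpy-23, after combined loss (median 0.20). The other 4, dpy-3, dpy-6, dpy-7 and dpy-8, were called by edgeR in none of the 3 comparisons. The listed gene dpy-23 encodes an AP2 adaptor, not a part of the cuticle or basement membrane. It had 143, 131, 131 and 130 CPM after cleavage, against 85.8, 87.0, 84.4 and 89.5 CPM in TEV controls. After combined loss its log2 fold change was 0.51 (adjusted p = 0.0157). After SDC-3 degradation 0 of 7 were called by edgeR (1 higher and 3 lower both at an unadjusted p and with DESeq2). There the cuticle collagen gene dpy-7, which cycles with the moults, had 197, 328 and 113 CPM with auxin, against 724, 481 and 708 CPM without auxin, and the moulting markers moved with it. Of 5 tested genes of muscle and gut, 2 were higher after DPY-26 cleavage (unc-78 and unc-97), 1 after combined loss (the pharyngeal myosin gene myo-2) and 0 after SDC-3 degradation (also 0 with DESeq2 and at an unadjusted p). For combined loss, 4 were higher and 0 lower at an unadjusted p, and 2 and 0 with DESeq2. The gut GATA factor gene elt-2 had 18.5, 15.0, 18.3 and 21.1 CPM after cleavage, against 15.2, 17.3, 17.4 and 19.2 CPM in TEV controls, which overlapped.

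X genes that went against the chromosome were few. The 11 genes called lower after DPY-26 cleavage had log2 fold changes of −1.39 (clec-86, which encodes a C-type lectin) to −0.42 (sdc-2), and included asp-14, which encodes an aspartyl protease (−1.04), and catp-5, which encodes a P-type ATPase (−0.49). The 4 called lower after combined loss were the collagen gene col-180 (−1.42), C18A11.4 (−1.40), F54B11.11 (−0.96) and K09C4.1 (−0.48).

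The 5 comparisons that left DPY-26 and SDC-3 intact gave X medians of −0.0089 to 0.07. The highest was that of COH-1 with SCC-1, where chromosome V had a median of 0.10. They were 0.03 after cleavage of KLE-2, the kleisin of condensin II (autosomes 0.03), and 0.0076 after cleavage of the cohesin kleisin SCC-1 (autosomes 0.03). They were 0.02 after cleavage of the cohesin kleisin COH-1 (autosomes −0.0033), 0.07 after cleavage of both (autosomes −0.0054) and −0.0089 for TIR1 under auxin (autosomes 0.04). With KLE-2, 0 X windows were called by limma, with TMM or with DESeq2 size factors (0.215% of all windows), and 30 were higher and 23 lower at an unadjusted p under 0.05. Without KLE-2 replicate 3, 1 was called higher and 2 lower. With COH-1 likewise 0 were called (0.109% of all windows), and 17 were higher and 6 lower at an unadjusted p. SCC-1 cleavage gave 36 X windows higher and 34 lower (11.4% and 8.35% of all windows), and COH-1 with SCC-1 gave 40 higher and 9 lower (11.3% and 5.37%). For TIR1 under auxin 3 were higher and 20 lower (2.13% and 4.14% of all windows). These counts moved with single libraries. For COH-1 with SCC-1 they were 9 higher and 3 lower, 8 and 5, or 10 and 3 without cleaved replicate 1, 2 or 3, 36 and 18 without TEV control replicate 2, and 25 and 9 without TEV control replicate 3. For SCC-1 they were 13 and 25 or 23 and 26 without cleaved replicate 1 or 2, and 21 and 26, 12 and 21, or 20 and 31 without TEV control replicate 1, 2 or 4. For TIR1 they were 0 and 16, 0 and 7, or 1 and 16 without TIR1 replicate 1, 2 or 3, and 1 and 7 or 0 and 5 without TEV auxin control replicate 1 or 2. KLE-2 and SCC-1 shared their TEV controls with DPY-26, and the TIR1 samples were the controls of combined loss. The TIR1 samples also had lower sums of the moulting genes (591 to 1450 TPM) than the TEV auxin controls (1743 to 2814 TPM). The part of this difference in the TIR1 results was not tested. The spread of X ratios in these comparisons, an SD of 0.13 to 0.26 between windows, was like that after DPY-26 cleavage (0.19), after which the whole distribution lay higher.

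**Figure D5:**
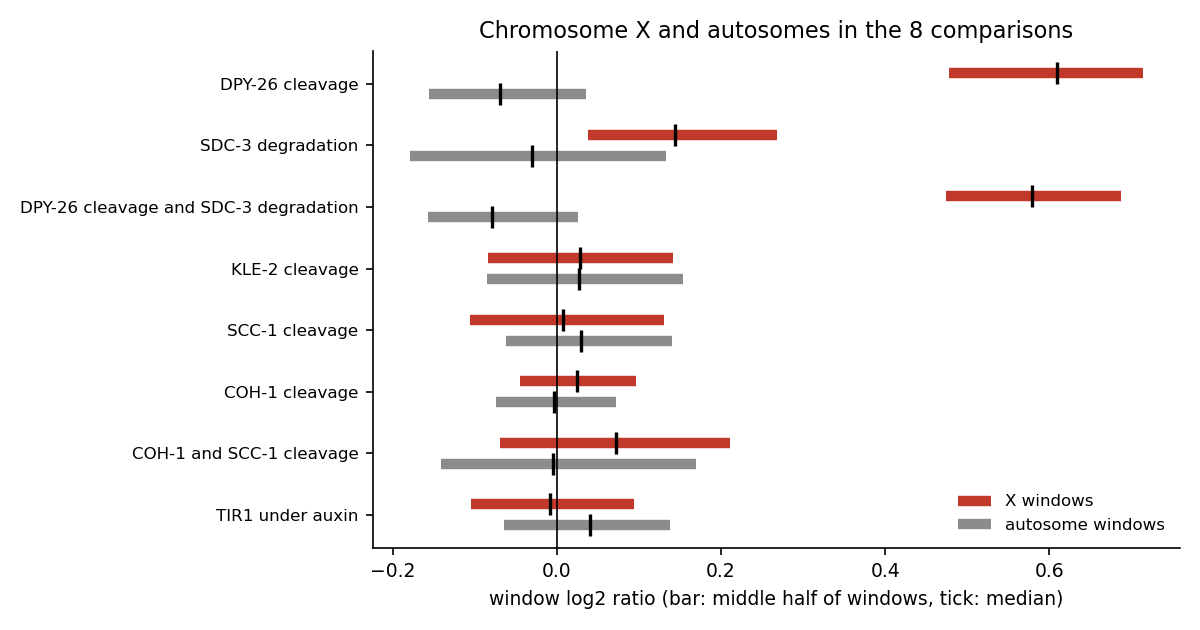
Median (tick) and interquartile range (bar) of the window ratios on X (red) and on the autosomes (grey) in the 8 comparisons, each against the control of its own batch. X lies apart from the autosomes after DPY-26 cleavage and combined loss (medians 0.61 and 0.58). It has a median of 0.14 after SDC-3 degradation, where the bars overlap, and overlaps the autosomes in the other 5 (X medians up to 0.07).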

How the data were processed

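Poly(A) RNA of L3 animals was sequenced with a stranded kit. The submitters' processing notes name cutadapt 2.5, Salmon 1.5.2 and STAR 2.7.9a. The authors deposited, for each sequencing run, Salmon tables with estimated counts and TPM per transcript, and the transcriptome release is not given in the sources used here. Of 42938 transcripts, 30905 were matched to genes of Ensembl release 115 (WBcel235) by name and 11992 by sequence name, and 41 matched none, which took up to 0.0128% of the reads. Estimated counts were summed over runs and transcripts, and rounded. TPM served only for marker sums and the level of windows. Totals of 20460404 to 88427247 reads limit the precision of genes with few reads, and the error given covers the spread between samples, whose origin from separate cultures is not given in the labels.

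Genes with at least 10 reads in as many samples as each group holds were tested with edgeR 4.0.16 (TMM, quasi-likelihood test). For windows, the median over genes of centred log2 CPM (prior count 2) in each sample was tested with limma 3.58.1. Windows of all 6 nuclear chromosomes and all tested genes entered the Benjamini-Hochberg adjustment, and calls were made at 0.05. Differences between comparisons were contrasts in 1 limma fit on genes tested in all 3 (13449 genes). The scripts were tested on simulated data. Alternatives were TMM on autosomal genes, DESeq2 1.42.0, other filters, 100 kb or shifted windows, means, a replicate block, other controls and leaving out samples. Named windows were the 5 highest and 5 lowest after DPY-26 cleavage and the 2 with the largest of each difference, with up to 3 genes each that moved most in that direction, the 5 largest and 5 smallest changes among genes called in all 3 comparisons, the targeted genes and the listed X genes. Further windows and genes were named after their values were seen. The windows, lists and rules were chosen with earlier results of these data known. Genes that oscillate with the moults were kept. No sequences are printed, since no genome was used here.

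For COH-1 and its control all 3 pairs of samples with the same number deviated together (correlations of deviations 0.44, 0.59 and 0.51), and were taken as paired. The values given for COH-1 come from the fit without a block, and a replicate block changed no X window call there. In each other comparison the lowest correlation of a same-numbered pair was −0.20 to 0.08, though others were positive, and the samples were taken to share only a number. For COH-1 with SCC-1, which used the TEV controls of COH-1, the same-numbered pairs had 0.51, 0.08 and 0.28. A replicate block there gave 46 X windows higher and 11 lower, against 40 and 9 without it.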

Additional observations from a re-analysis of the deposited data

Results flagged for a closer look

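Within groups of 4 samples, 14 of 222 tested sets of values had 1 sample set apart from the rest by Dixon's test, and chance alone picks out about 1 in 20. In the window chrX:16200001-16250000, DPY-26 cleavage replicate 1 had −0.38 on the log2 scale, below the others (0.0092 to 0.03). In the window chrX:1300001-1350000, TEV control replicate 4 had 0.14, above the others. Among genes, after DPY-26 cleavage, the CPM stood apart for F09C8.1 (13.3 in replicate 4), slc-25A21 (4.45 in replicate 2), T13C5.9 (4.00 in replicate 2) and T01B4.3 (56.2 in replicate 2). The same held after DPY-26 cleavage for dpy-23 (143 in replicate 1), unc-18 (121 in replicate 4), daf-3 (39.8 in replicate 3) and nhr-25 (63.6 in replicate 3). In the TEV controls of batch 1 it held for C03F11.4 (3.45 CPM in replicate 2), ttr-30 (5.85 CPM in replicate 3), sex-1 (5.78 CPM in replicate 2) and mec-4 (5.88 CPM in replicate 1).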

How the results depend on the processing

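The directions of the X medians after DPY-26 cleavage, SDC-3 degradation and combined loss held under every alternative that was run. With TMM factors from autosomal genes they were 0.693, 0.168 and 0.646. That scaling made 87.0% of all called windows higher after DPY-26 cleavage, against 51.8%, and 77.2% of called genes, against 56.5%. After combined loss it made 93.9% of called windows higher, against 83.0%. With DESeq2, 40.0% of the called genes were higher after SDC-3 degradation, against 64.2%, on 636 higher and 953 lower against 111 and 62, and after KLE-2 cleavage 52.0%, against 35.7%. Without a low-count filter the SDC-3 median was 0.125. The median after combined loss was 0.524 with the TEV auxin control and 0.519 with both controls of batch 3. Taking means over genes gave −0.0165 for SCC-1, 0.0387 for COH-1 with SCC-1 and −0.0803 for TIR1 under auxin. The TIR1 median was −0.0205 with autosomal TMM, −0.0221 with DESeq2 size factors, 0.0124 without a filter and −0.0237 with at least 5 CPM, so its sign was not settled.

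After SDC-3 degradation, the count of X genes higher was 166 with DESeq2 and 16 with at least 5 CPM. X windows higher were 20 with means over genes and 0 with windows shifted by 25 kb or widened to 100 kb. With 100 kb windows, which are fewer, 176 X windows were higher after DPY-26 cleavage, 175 after combined loss, and 140 differed between DPY-26 cleavage and SDC-3 degradation. With the TEV auxin control, combined loss differed from DPY-26 cleavage in 10 windows and from SDC-3 degradation in 116. That control also turned the log2 fold change after combined loss for dpy-3 (−1.46), dpy-6 (1.30), dpy-8 (−1.55), H42K12.3 (−2.65), T01B4.3 (−0.0148) and T13C5.9 (−1.29), and the ratios of chrX:16300001-16350000 (−0.0148) and chrX:6150001-6200000 (−0.39). The summed level of the 11 moulting genes did not overlap between TEV auxin controls (1743 to 2814 TPM) and TIR1 auxin controls (591 to 1450 TPM). Without a filter the DPY-26 ratio of chrX:16200001-16250000 was 0.30. The cause was not tested.

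A replicate block gave 328 X windows higher after DPY-26 cleavage, 325 after combined loss and 0 after SDC-3 degradation, and 89 X genes higher after SDC-3 degradation. For TIR1 under auxin it gave 10 X windows higher and 32 lower. The numbers do not pair these samples by design, and every sample correlated best with the sample of its own number only for COH-1 and for COH-1 with SCC-1.

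Leaving out 1 sample at a time gave X medians of 0.598 to 0.630 after DPY-26 cleavage, 0.135 to 0.160 after SDC-3 degradation, 0.521 to 0.610 after combined loss, −0.0045 to 0.0467 for KLE-2, −0.0103 to 0.0125 for SCC-1, −0.0053 to 0.0326 for COH-1, 0.0571 to 0.0828 for COH-1 with SCC-1 and −0.0453 to 0.0035 for TIR1 under auxin. X windows higher were 321 to 326, 0 to 59 and 296 to 321, and X genes higher 1224 to 1502, 0 to 185 and 523 to 1097, after DPY-26 cleavage, SDC-3 degradation and combined loss. Windows that differed were 178 to 227 between DPY-26 cleavage and SDC-3 degradation, 126 to 205 between combined loss and SDC-3 degradation, and 0 to 0 between combined loss and DPY-26 cleavage. With 3 samples a group, the SDC-3 calls rest on single libraries, and small differences between combined loss and DPY-26 cleavage are not resolved.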
